A study of Homo sapiens with 12 samples.

Results

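The laminin, nidogen and peroxidasin genes of 2 human melanoma cell lines are described here, with each line's palbociclib-resistant derivative set against its parental cells. They are LAMA2, LAMA4 and LAMA5, LAMB1, LAMB2 and LAMB3, LAMC1, NID1 and NID2, and PXDN, 10 of the 29735 genes that both count tables list. All 10 were found by gene symbol in both tables, and all 10 passed the filter on low counts in both lines. They were picked by name with their values in these same libraries already known, so the differences between resistant and parental cells and between the lines are given below as descriptions. Where the number of them past a test's threshold is printed, it stands beside the share of all genes and supports nothing.

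A375 and CHL1 are melanoma lines, and palbociclib inhibits the cell cycle kinases CDK4 and CDK6. The resistant cells, A375AR991 and CHL1AR991, were selected under rising palbociclib for 7 months and 3 months and then kept in 4 µM, whereas the parental cells had no treatment. All cells, parental and resistant, spent the last 72 h before RNA extraction without the drug. Each of the 4 groups has 3 libraries of total RNA, and the labels do not say whether these came from separate cultures, so an error or a p-value measures the spread between libraries, which may be technical. Each line has 1 resistant derivative, and the sources used here do not say whether it is a clone or a pool.

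Laminins are trimers of an α, a β and a γ chain, and their network is the first layer of a basement membrane. Nidogens bridge this network to the network of type IV collagen, and peroxidasin is the enzyme that forms the sulfilimine bonds which hold type IV collagen together. Cells grip the finished sheet through laminin-binding integrins and dystroglycan, and melanoma cells both make these proteins and cross such sheets when they invade.

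The libraries held 25398920 to 29812686 counts, and 3 counts in a library stood for 0.101 to 0.118 CPM, the usual measure of counts scaled to the library's total. Levels below are normalised CPM on 1 scale over all 12 libraries, and levels are compared between genes only per kilobase of exon. SOX10, a transcription factor that marks melanocytic cells, lay between 200.8 and 493 CPM in A375 and between 931 and 1166 CPM in CHL1. The pigment genes PMEL and MLANA were below 1.4 CPM in every library of both lines, and TYR was not listed for A375. Other melanocyte markers were expressed or differed between the states. DCT averaged 44.55 ± 2.74 CPM in parental and 19.1 ± 0.432 CPM in resistant CHL1 (SD, n = 3), but 0.0878 and 0.395 CPM in A375. MITF averaged 46.2 CPM in parental and 33.1 CPM in resistant A375, and 33.4 and 25.7 CPM in CHL1. TYRP1 averaged 0.210 CPM in parental and 1.74 CPM in resistant A375. The markers did not share a direction in CHL1, where S100B averaged 114 CPM in parental and 184 CPM in resistant cells and S100A1 70.5 and 47.3 CPM. In A375 S100B averaged 18.1 CPM in parental and 12.3 CPM in resistant cells, and S100A1 10.7 and 7.38 CPM.

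PXDN gave the widest difference. Its mean was 68.2-fold lower in resistant than in parental A375, while in CHL1 it was the most abundant of the 10 mRNAs per kilobase in both states. LAMA4 was 2.73-fold higher in resistant A375, LAMB3 was lower in the resistant cells of both lines, and LAMA2 was lower in resistant A375 and higher in resistant CHL1. In A375, 1 of the 10 genes was higher and 5 were lower at an adjusted p below 0.05 (edgeR), where 28.3% of all genes tested passed, 13.4% as higher and 14.8% as lower. In CHL1, 4 were higher and 2 were lower, where 21.0% of all genes tested passed, 9.50% as higher and 11.5% as lower. The 3 parental and 3 resistant libraries did not overlap for 6 of the 10 genes in A375, 1 higher and 5 lower, where 42.8% of all genes tested did not overlap, 20.8% as higher and 22.0% as lower. In CHL1 they did not overlap for 8 of the 10, 6 higher and 2 lower, where 36.7% of all genes tested did not overlap, 17.8% as higher and 18.9% as lower. The median log2 fold change of the 10 genes was -0.39 in A375 and 0.15 in CHL1, beside 0.00 and 0.01 over all genes tested. Nothing is read from these counts, since the genes were chosen with them known.

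**Figure D1:**
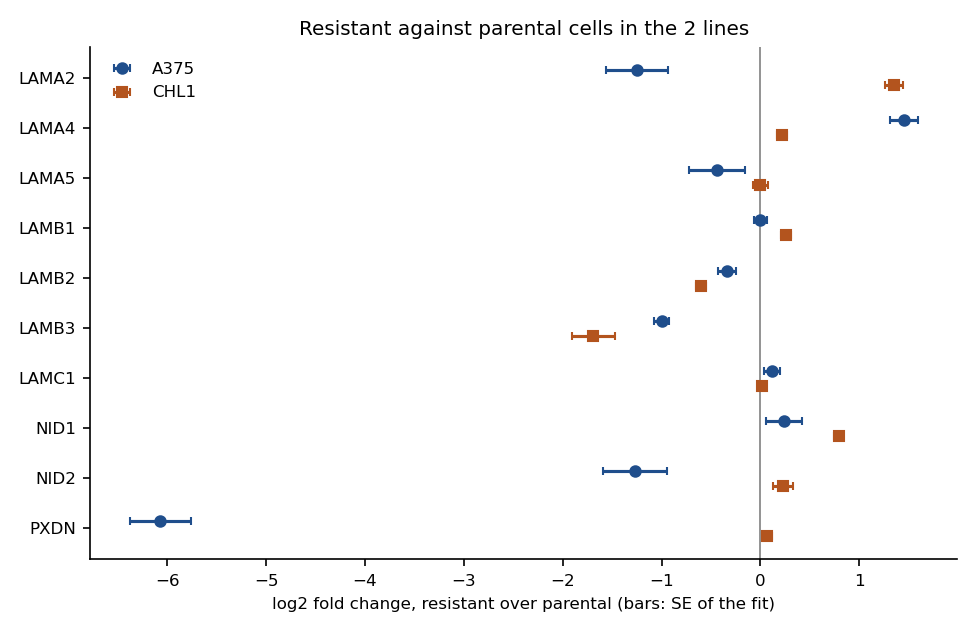
Log2 fold change of each gene between resistant and parental cells, resistant over parental, in A375 (circles) and CHL1 (squares), with bars for the standard error of the fit. PXDN in A375 lies at -6.07 and in CHL1 at 0.07, and LAMA2 lies at -1.25 in A375 and 1.35 in CHL1.

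The sequences just upstream of the 4 genes with the widest differences show how unlike their promoters are in CpG content. Each line gives the 250 bases before the RefSeq transcription start (GRCh38.p14), 5′ to 3′ on the gene's strand, in lower case with every CpG in capitals. The windows are chr2:1744516-1744765 on the minus strand for PXDN, chr6:112254568-112254817 on the minus strand for LAMA4, chr1:209652426-209652675 on the minus strand for LAMB3 and chr6:128882888-128883137 on the plus strand for LAMA2. For LAMB3 the table has 3 starts, and the most upstream one was taken.
PXDN: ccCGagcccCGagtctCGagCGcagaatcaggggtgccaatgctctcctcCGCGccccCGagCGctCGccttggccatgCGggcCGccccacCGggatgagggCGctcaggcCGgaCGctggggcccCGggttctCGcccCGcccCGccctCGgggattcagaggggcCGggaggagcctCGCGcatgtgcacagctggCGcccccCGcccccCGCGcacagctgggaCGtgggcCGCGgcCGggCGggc
LAMA4: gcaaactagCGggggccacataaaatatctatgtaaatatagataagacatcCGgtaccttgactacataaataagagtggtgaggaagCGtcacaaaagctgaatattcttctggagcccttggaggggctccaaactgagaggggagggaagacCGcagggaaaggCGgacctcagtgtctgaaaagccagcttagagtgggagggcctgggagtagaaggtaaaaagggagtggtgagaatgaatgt
LAMB3: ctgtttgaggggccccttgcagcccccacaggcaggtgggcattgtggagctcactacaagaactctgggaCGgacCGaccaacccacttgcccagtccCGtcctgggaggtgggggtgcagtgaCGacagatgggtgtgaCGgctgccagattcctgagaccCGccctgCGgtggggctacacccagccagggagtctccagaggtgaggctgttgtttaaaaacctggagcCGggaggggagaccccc
LAMA2: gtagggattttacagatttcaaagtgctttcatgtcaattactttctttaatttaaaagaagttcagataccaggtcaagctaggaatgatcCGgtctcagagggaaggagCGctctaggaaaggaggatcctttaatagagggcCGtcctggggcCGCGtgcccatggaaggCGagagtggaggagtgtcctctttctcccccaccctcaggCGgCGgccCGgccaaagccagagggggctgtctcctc
The PXDN window holds 32 CpG, a number reached by 9.24% of the 27326 promoter windows in the table, whose median is 10. LAMA4 holds 5, LAMB3 holds 8 and LAMA2 holds 9. The GC box, read as GGGCGG or its reverse complement CCGCCC, occurs 5 times in the PXDN window, once in that of LAMB3 and in neither of the other two, and 42.2% of all windows hold at least 1. The AP-1 motif TGANTCA, searched on both strands, is in none of the 10 genes' windows and in 6.57% of all windows. The 10 windows range from 5 CpG in LAMA4 to 32 in PXDN, LAMA5 and LAMC1, and these are counts of letters only.

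Among the α chains, which give each laminin its receptor binding, LAMA4 and LAMA2 differed most. LAMA4, the α chain of vessel and nerve laminins, was at 117, 84.7 and 110 CPM in parental A375 (replicates 1, 2 and 3) and at 307, 234 and 312 CPM in resistant A375. Every resistant library lay above every parental one, with a log2 fold change of 1.45 ± 0.14 (SE). In CHL1 it was at 193, 191 and 192 CPM in parental and 237, 222 and 209 CPM in resistant cells, again without overlap but with a smaller log2 fold change of 0.22 ± 0.05. LAMA2, the α chain of muscle and Schwann cell laminin, went the opposite way in the lines. It was at 2.92, 2.56 and 4.54 CPM in parental and 0.977, 2.01 and 1.18 CPM in resistant A375. In CHL1 it was at 7.51, 6.75 and 7.58 CPM in parental and 19.6, 17.0 and 18.9 CPM in resistant cells. The groups did not overlap in either line, and the log2 fold changes were -1.25 ± 0.31 and 1.35 ± 0.09. The A375 values rest on 29 to 124 counts a library.

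LAMA5, the α chain found in most adult basement membranes, was the most spread out of the well-expressed genes. Parental A375 had 125, 65.2 and 149 CPM and resistant A375 had 106, 63.4 and 82.1 CPM, so the groups overlapped, and replicate 2 was the lowest in both. In CHL1 the means were 46.4 ± 5.23 CPM in parental and 46.4 ± 3.52 CPM in resistant cells (SD, n = 3). LAMA5 shares 244 exon bases with ADRM1 on the opposite strand. ADRM1 had 25669 counts in parental and 31250 in resistant A375, against 9139 and 7414 for LAMA5. In CHL1 it had 11585 and 12878, against 3695 and 3715 for LAMA5. LAMB1 shares 70 exon bases with DLD, which had 11873 to 12768 counts a group. LAMA4 shares 206 with an unnamed gene of at most 17 counts over a group. These 2 partners are also on the opposite strand. The library kit does not mark the strand, so reads from such overlaps cannot be told apart.

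**Figure D2:**
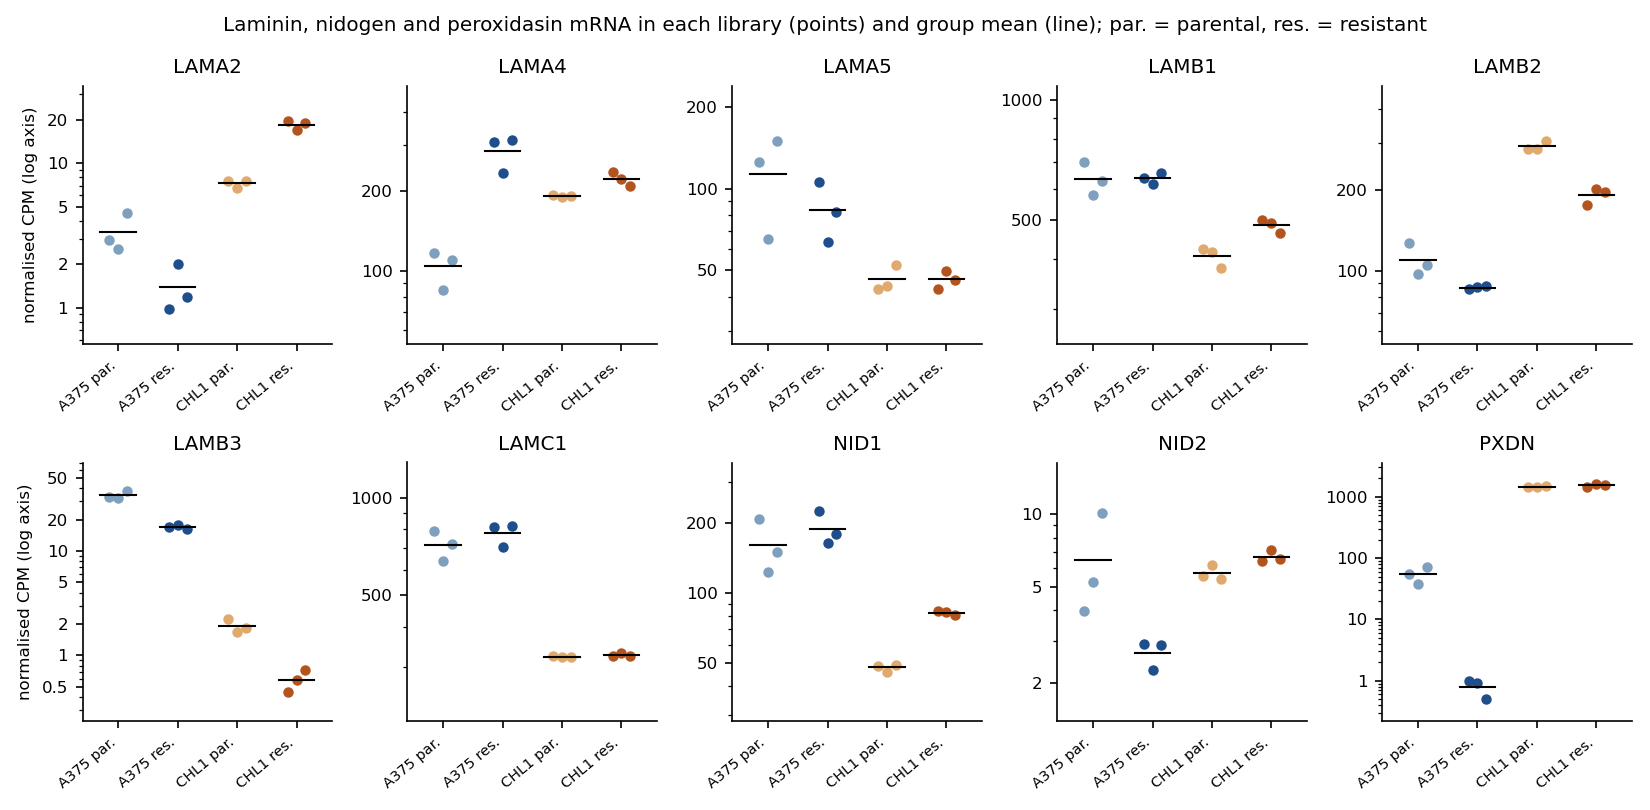
Normalised CPM (log axis) of the 10 genes in each library (points) with the group mean (line), for parental (par.) and resistant (res.) cells of A375 and CHL1, and with its own axis range in each panel. PXDN spans 0.502 to 71.1 CPM in A375 and stays between 1422 and 1609 CPM in CHL1.

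The mix of α chain mRNAs in A375 therefore differed between the states. Per kilobase of exon, LAMA4 made up 51.1%, 57.8% and 42.8% of the summed LAMA1 to LAMA5 signal in parental A375 (replicates 1, 2 and 3) and 76.1%, 78.3% and 79.9% in resistant A375. The share of LAMA5 was 42.4 ± 5.71% in parental and 18.5 ± 2.35% in resistant A375 (SD, n = 3). The summed α chain level was 18.2 ± 4.97 CPM per kilobase in parental and 31.5 ± 4.93 in resistant cells. In CHL1 the share of LAMA4 was 74.8 ± 1.15% in parental and 73.9 ± 1.75% in resistant cells, and that of LAMA2 was 3.17 ± 0.175% and 6.87 ± 0.524%. Resistant A375 and both states of CHL1 thus held LAMA4 at 72.4% to 79.9% of the α signal in each library.

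Markers of fibroblasts, cells rich in LAMA4 and LAMA2, were measured beside these genes. The 7 markers summed to 19.5 to 24.4 CPM in the parental and 41.6 to 51.7 CPM in the resistant A375 libraries, with 4 of 7 at 1 CPM or more in each state. COL1A2 rose from 0.384 ± 0.374 to 13.9 ± 1.31 CPM (SD, n = 3, edgeR adjusted p = 2.8e-05), LUM and COL3A1 also rose, and PDGFRB fell. THY1 was at 0.161 CPM in parental and 0.169 CPM in resistant A375. In CHL1 the list summed to 17.0 to 23.1 and 11.5 to 14.1 CPM. The 4 Schwann cell markers, the cells LAMA2 is known from, summed to 1480 to 1560 CPM in parental and 1630 to 1740 CPM in resistant CHL1. In A375, where LAMA2 was lower in the resistant cells, they summed to 191 to 239 CPM in parental and 181 to 256 CPM in resistant cells, which overlap. PMP22, the most abundant of them in CHL1, was at 1044 ± 41.3 CPM in parental and 960.2 ± 14.6 CPM in resistant CHL1 (SD, n = 3) and did not pass the test (edgeR adjusted p = 0.082). The samples are cultured melanoma lines and not tissue, so these markers are read as expression within each line. The part of such programmes in the laminin differences was not tested. In bulk RNA fewer cells that express a gene and less of its RNA per cell cannot be told apart.

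**Figure D3:**
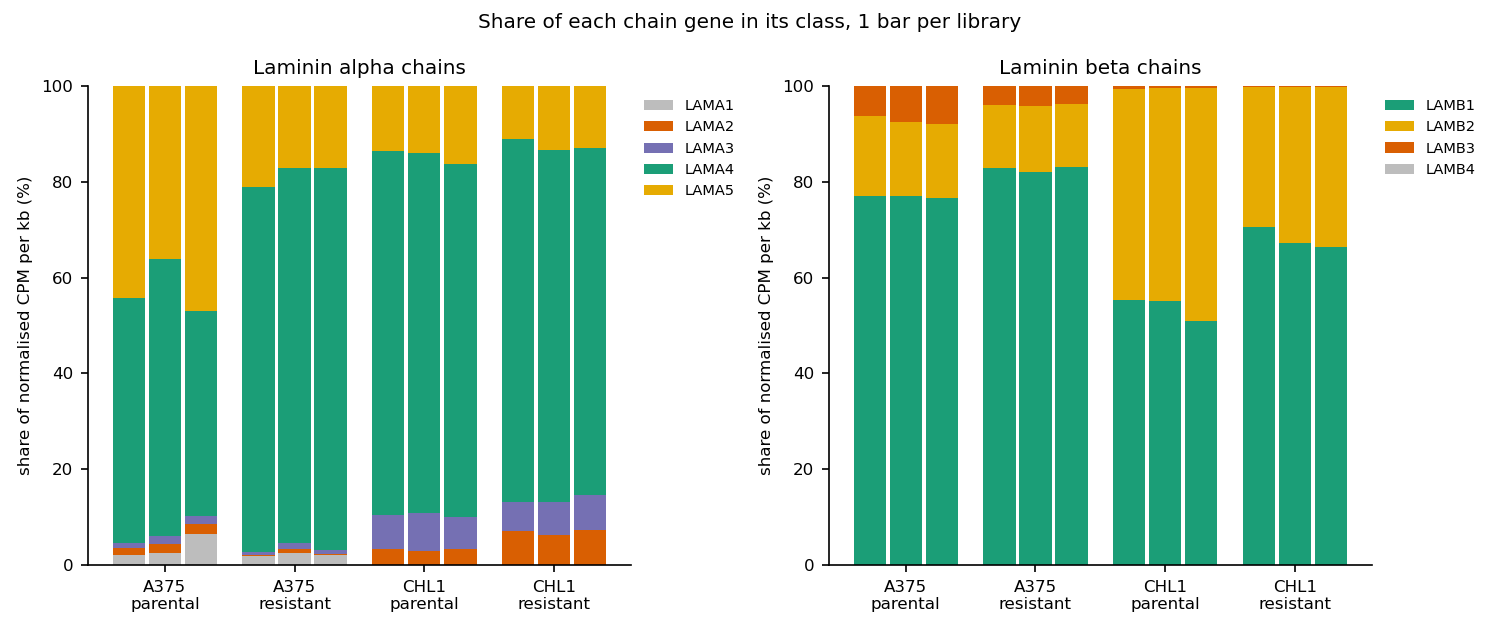
Share (%) of each laminin α gene (left) and β gene (right) in the summed normalised CPM per kilobase of its class, with 1 bar per library. LAMA4 takes 42.8% to 57.8% of the α signal in parental A375 and 76.1% to 79.9% in resistant A375, and LAMB2 takes a mean of 45.8% of the β signal in parental CHL1 and 31.8% in resistant CHL1.

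Of the β chains, LAMB1 differed least and LAMB3 most. LAMB1, the common β chain, was at 701, 580 and 625 CPM in parental and 637, 617 and 658 CPM in resistant A375, a log2 fold change of 0.00 ± 0.07. In CHL1 it was at 423, 416 and 379 CPM in parental and 501, 492 and 465 CPM in resistant cells, where the groups did not overlap. LAMB3, the β chain of the laminin that anchors epidermis, was at 32.7, 32.1 and 37.5 CPM in parental and 17.1, 17.8 and 16.3 CPM in resistant A375. In CHL1 it was at 2.22, 1.67 and 1.84 CPM in parental cells and 0.446, 0.579 and 0.725 CPM in resistant ones, from 153 and 47 counts over the 3 libraries. LAMB3 was thus lower in all resistant libraries of both lines, with log2 fold changes of -1.0 ± 0.08 and -1.69 ± 0.22.

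The α partner of LAMB3 in that laminin is LAMA3, which is not among the 10 genes. It averaged 3.98 ± 1.15 CPM in parental and 3.75 ± 0.712 CPM in resistant A375 (SD, n = 3). LAMA3 did not pass the test in A375 (edgeR adjusted p = 0.82) or in CHL1 (0.29). The basal keratins KRT14 and KRT5 fell in resistant A375, KRT14 from 22.4 ± 4.74 to 4.38 ± 0.0316 CPM (SD, n = 3, edgeR adjusted p = 2.3e-05). The epithelial list as a whole, led by KRT18, summed to 341 to 434 CPM in parental and 415 to 474 CPM in resistant A375, with EPCAM and CDH1 below 1 CPM on average in every group. In CHL1 the list summed to 22.9 to 23.3 CPM in parental and 23.8 to 26.4 CPM in resistant cells. In CHL1 KRT14 rose (log2 fold change 1.07 ± 0.24, edgeR adjusted p = 0.008) and KRT8 fell (-0.70 ± 0.15, edgeR adjusted p = 0.0071). The part of an epithelial-type programme in the LAMB3 values was not tested.

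LAMB2, the β chain of synaptic and glomerular laminin, was lower in resistant cells of both lines. It was at 127, 97.8 and 105 CPM in parental and 85.4, 87.2 and 87.7 CPM in resistant A375, and at 284, 284 and 305 CPM in parental and 176, 202 and 197 CPM in resistant CHL1. The groups did not overlap, and the log2 fold changes were -0.34 ± 0.09 and -0.60 ± 0.05. In CHL1 its share of the β signal per kilobase was 45.8 ± 2.51% in parental and 31.8 ± 2.16% in resistant cells (SD, n = 3). On chromosome 3 the expressed genes on either side of LAMB2 were also lower in resistant CHL1. Of its 20 nearest neighbours at 1 CPM or more, 16 fell and 1 rose, with a median log2 fold change of -0.46, and the dystroglycan gene DAG1 is among them at -0.51 ± 0.05. In A375 5 of the same number of neighbours fell and none rose, with a median of -0.06.

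**Figure D4:**
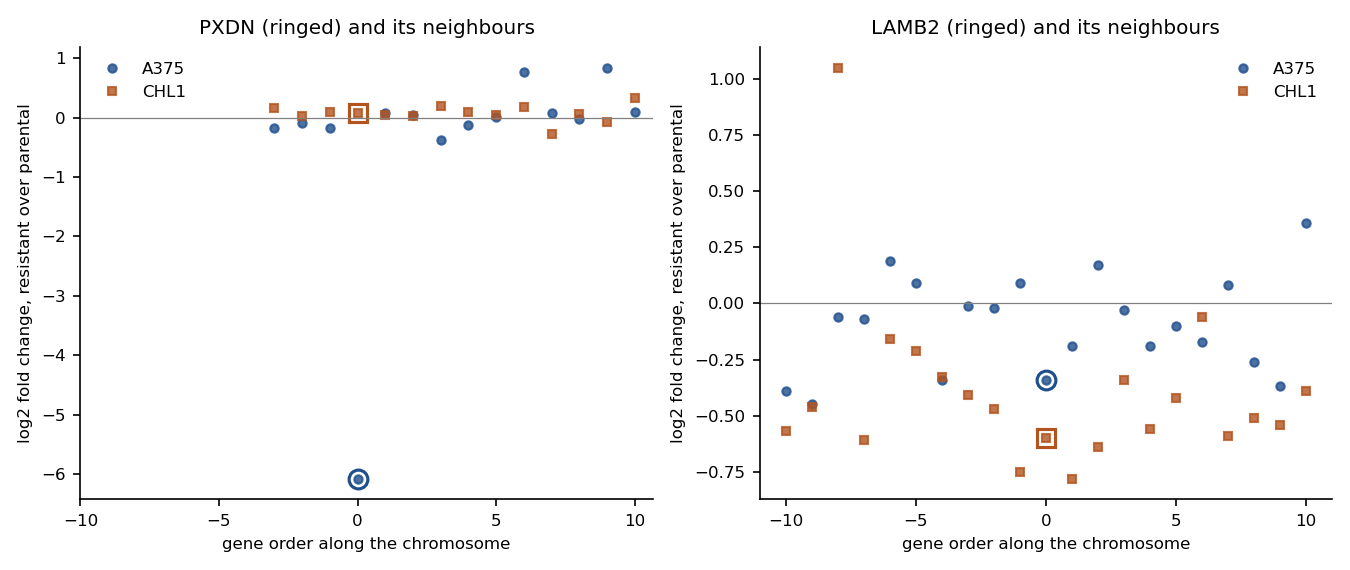
Log2 fold change between resistant and parental cells of PXDN (left, ringed) and LAMB2 (right, ringed) and of up to 10 expressed genes on each side in chromosomal order, in A375 (circles) and CHL1 (squares). PXDN stands at -6.07 in A375 among neighbours from -0.37 to 0.84, whereas LAMB2 at -0.60 in CHL1 lies among neighbours with a median of -0.46.

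LAMC1, the γ chain shared by most laminins, differed little between the states. It was at 791, 638 and 721 CPM in parental and 810, 706 and 817 CPM in resistant A375, with overlap and a log2 fold change of 0.12 ± 0.08. In CHL1 it was at 324, 322 and 323 CPM in parental and 325, 331 and 326 CPM in resistant cells. These groups did not overlap, yet the log2 fold change was 0.02 ± 0.04, so the separation is within the error of the fit. LAMC1 supplied 97.4% to 99.7% of the γ chain signal per kilobase as the mean of each group.

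The 2 nidogens did not move together. NID1 was at 209, 123 and 151 CPM in parental and 225, 165 and 180 CPM in resistant A375, where the groups overlapped. In CHL1 it was at 48.8, 46.0 and 49.1 CPM in parental and 83.9, 82.8 and 81.0 CPM in resistant cells, a 1.72-fold higher mean and a log2 fold change of 0.79 ± 0.05. NID2, its sparser relative, was at 3.98, 5.26 and 10.1 CPM in parental and 2.90, 2.26 and 2.87 CPM in resistant A375, without overlap. Parental replicate 3 set much of that difference, since the log2 fold change of -1.27 ± 0.32 was -0.79 without it. In CHL1 NID2 was at 5.58, 6.19 and 5.38 CPM in parental and 6.40, 7.13 and 6.53 CPM in resistant cells, a log2 fold change of 0.23 ± 0.10. NID2 shares 1915 exon bases with RTRAF on the opposite strand, which had 6615 to 9611 counts a group against 237 to 535 for NID2, so its values are uncertain.

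PXDN was at 55.6, 37.2 and 71.1 CPM in parental A375 and at 0.977, 0.924 and 0.502 CPM in resistant A375. The resistant libraries held 29, 29 and 14 counts, above the 3-count floor, and the means of 54.6 ± 17.0 and 0.801 ± 0.261 CPM (SD, n = 3) differed by a log2 fold change of -6.07 ± 0.31. In CHL1 the gene was at 1444, 1422 and 1523 CPM in parental and 1431, 1609 and 1550 CPM in resistant cells, with overlap and a log2 fold change of 0.07 ± 0.05. PXDN lies near the end of chromosome 2, and its 13 expressed neighbours in A375 had a median log2 fold change of 0.01, with 2 that rose and 1 that fell. The lowest of these neighbours stood at -0.37. LAMA4, NID2 and LAMA2 in A375 and LAMB3, NID1 and LAMA2 in CHL1 also lay beyond every one of their 20 neighbours.

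PXDNL, the close relative of PXDN that is not known to crosslink collagen, fell in CHL1 from 2.00 ± 0.284 to 0.443 ± 0.141 CPM (SD, n = 3, edgeR adjusted p = 8.8e-05) and stayed below 0.3 CPM in every A375 library. By Pearson r of log2 levels over the 12 libraries, 3 genes were most like PXDN among 15299. They were ENSG00000155984, which had no symbol in the sources used here (r = 0.998), the cadherin CDH4 (0.998) and SSR4 (0.996). The coefficient compares the pattern and not the size of a difference. ENSG00000155984 averaged 15.6 CPM in parental and 7.33 CPM in resistant A375, and SSR4 63.9 and 28.3 CPM, much smaller differences than that of PXDN. CDH4 averaged 1.60 CPM in parental and 0.0663 CPM in resistant A375, and 8.55 and 11.2 CPM in CHL1. For LAMB3, the gene with the widest difference in CHL1, they were USP4 (0.996), MTMR14 (0.995) and AACS (0.995). USP4 is 1 of the LAMB2 neighbours above. The 12 points share their line and state, so these coefficients are a description.

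Ordered per kilobase, LAMC1 at 85.2 ± 9.07 and LAMB1 at 78.1 ± 7.51 CPM per kilobase led in parental A375 (SD, n = 3) and their libraries overlapped. NID1 followed at 27.4 ± 7.51 and LAMB2 at 16.1 ± 2.25, and then LAMA4 at 8.99 ± 1.47, LAMA5 at 7.93 ± 3.03 and LAMB3 at 7.28 ± 0.631, which overlapped. PXDN at 4.85 ± 1.51, NID2 at 1.01 ± 0.509 and LAMA2 at 0.322 ± 0.102 came last. In resistant A375 LAMA4 stood above LAMB2 at 24.6 ± 3.77 and PXDN came last at 0.0712 ± 0.0231. In parental CHL1 the order was PXDN at 130.0 ± 4.71, LAMB1 at 49.9 ± 2.95, LAMB2 at 42.4 ± 1.79, LAMC1 at 38.4 ± 0.106 and LAMA4 at 16.6 ± 0.127. NID1 at 8.18 ± 0.292, LAMA5 at 3.24 ± 0.366, NID2 at 0.895 ± 0.0658, LAMA2 at 0.703 ± 0.0446 and LAMB3 at 0.407 ± 0.060 followed, and no neighbours in that order overlapped. In resistant CHL1 LAMC1 at 38.9 ± 0.391 passed LAMB2 at 27.9 ± 2.03, and LAMA2 at 1.79 ± 0.131 passed NID2 at 1.05 ± 0.0605.

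The lines were also set against each other in each state. At an adjusted p below 0.05 (edgeR), 9 of the 10 differed between the parental lines, 5 higher and 4 lower in A375, where 75.6% of all genes tested did, 38.2% as higher and 37.4% as lower. All 10 differed between the resistant lines, 6 higher and 4 lower in A375, where 76.6% did, 38.0% as higher and 38.6% as lower. Parental A375 had 17.9-fold more LAMB3, 3.36-fold more NID1, 2.44-fold more LAMA5 and 2.22-fold more LAMC1 than parental CHL1, and 26.8-fold less PXDN, 2.64-fold less LAMB2 and 2.18-fold less LAMA2. LAMA4 was 1.84-fold lower in parental A375 than in parental CHL1. Between the resistant lines the difference in PXDN was 1910-fold, that in LAMB3 29.2-fold and that in LAMA2 13.3-fold, while the LAMA4 libraries of the 2 lines overlapped. NID2 overlapped between the parental lines, and its log2 fold change of 0.18 became -0.31 without parental A375 replicate 3. Each line has a table of its own, so line and table cannot be told apart. The difference of the 2 resistance effects, A375 minus CHL1, was -6.13 ± 0.30 for PXDN, -2.60 ± 0.30 for LAMA2, -1.50 ± 0.36 for NID2, 1.24 ± 0.16 for LAMA4 and 0.69 ± 0.23 for LAMB3 on the log2 scale. At an adjusted p below 0.05 (edgeR) 5 of the 10 genes differed in this sense, 2 higher and 3 lower, where 23.6% of all genes tested did, 11.7% as higher and 11.9% as lower.

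The other genes of the basement membrane were taken from 7 lists of 70 genes, which hold none of the 10. In A375 62 of them were tested, of which 15 rose, 15 fell and 32 did not pass, with a median log2 fold change of -0.06. Of all genes tested in A375, 13.4% passed as higher and 14.8% as lower. In CHL1 62 were tested, of which 8 rose, 17 fell and 37 did not pass, also with a median of -0.06. Of all genes tested in CHL1, 9.50% passed as higher and 11.5% as lower. The same shares stand beside the counts of the single lists below. The lists were chosen with earlier results of these data known, so nothing is read from their counts. The adjusted p-values in the paragraphs on these lists are from edgeR over all genes tested.

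Type IV collagen, the scaffold that peroxidasin crosslinks, had 2 of 5 tested genes that rose and 1 that fell in A375. COL4A6 rose from 2.09, 2.11 and 1.76 CPM to 14.0, 16.4 and 15.3 CPM (adjusted p = 3.6e-06), and COL4A5 rose from 6.58 ± 1.08 to 13.7 ± 0.346 CPM (SD, n = 3, adjusted p = 0.00039). COL4A2, an abundant chain, fell from 639 ± 65.4 to 475 ± 34.2 CPM (SD, n = 3, adjusted p = 0.004), and its partner COL4A1 had a log2 fold change of -0.06 ± 0.08. In CHL1 COL4A1 alone passed, at a log2 fold change of 0.20 ± 0.06 (adjusted p = 0.032), and it no longer passed when replicate 2 or 3 of either state was left out (largest adjusted p = 0.11). Of the remaining laminin chains LAMC3 alone passed. Its log2 fold change was 1.59 ± 0.50 in A375 (adjusted p = 0.041) and -1.39 ± 0.31 in CHL1 (adjusted p = 0.0082). The A375 call rests on levels of 0.152 to 1.79 CPM that overlap between the groups, and it was lost on leaving out replicate 1 or 3 of the parental or 1 or 2 of the resistant cells (largest adjusted p = 0.14).

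**Figure D5:**
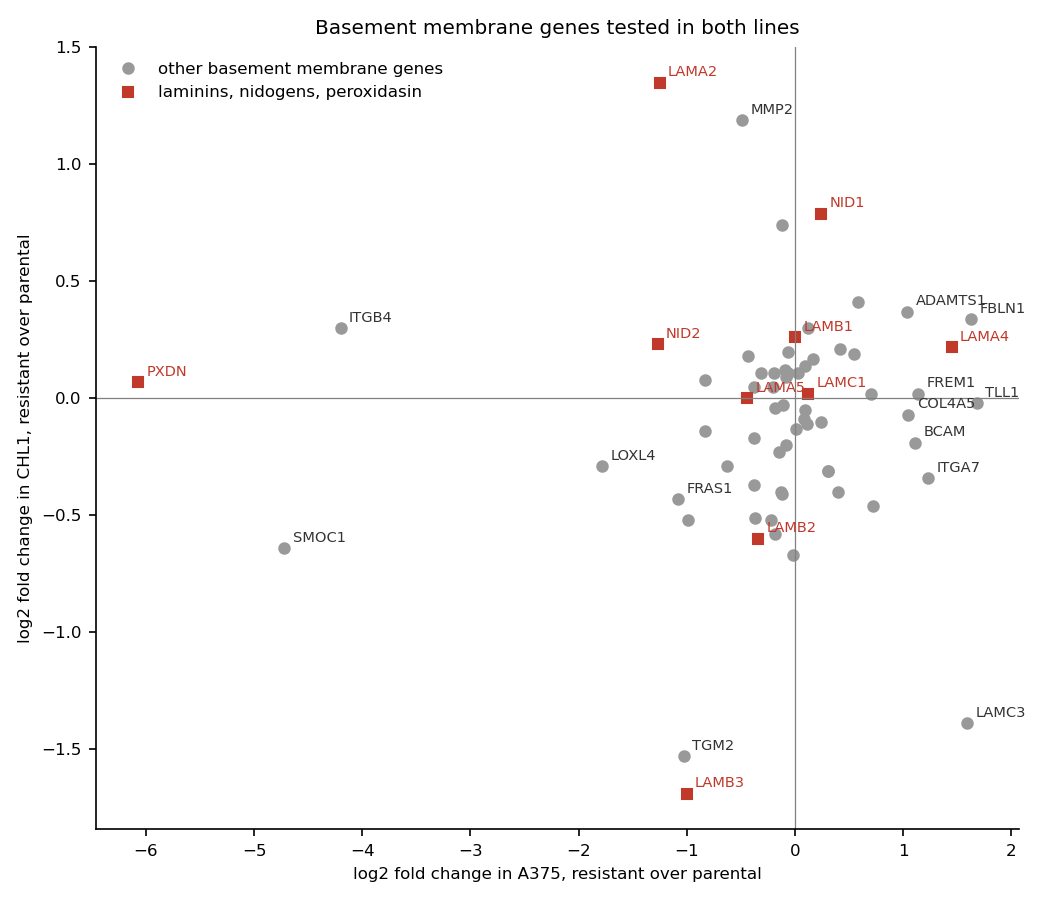
Log2 fold change between resistant and parental cells in A375 (horizontal axis) and CHL1 (vertical axis) of the basement membrane genes tested in both lines, with the laminin, nidogen and peroxidasin genes as squares and the genes of the other lists as circles, and names given to all squares and to circles at 1 or more in size on either axis. PXDN, SMOC1 and ITGB4 lie far to the left at -6.07, -4.72 and -4.20 in A375, and LAMB3 and TGM2 are low on both axes.

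Linkers and proteoglycans went both ways, with 3 of 13 tested genes up and 3 down in A375 and 2 of 14 up and 4 down in CHL1. SMOC1, a calcium-binding basement membrane protein, fell in A375 from 15.8, 10.8 and 12.8 CPM to 0.708, 0.51 and 0.251 CPM (adjusted p = 1.1e-05). TINAGL1 fell by 0.99 on the log2 scale (adjusted p = 0.00024), while FBLN1, a fibulin that binds laminin and nidogen, rose by 1.63 ± 0.20 (adjusted p = 0.00045) and FREM1 by 1.14 ± 0.22 (adjusted p = 0.0049). In CHL1 COL15A1 rose by 0.74 ± 0.11 (adjusted p = 0.00063) and FBLN1 by 0.34 ± 0.07 (adjusted p = 0.0048), and SPARC and NTN4 fell by 0.41 and 0.58 (adjusted p = 0.00033 and 0.0047).

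Of the 13 laminin receptors tested, 6 fell and 2 rose in A375, and 4 fell and 1 rose in CHL1. ITGB4, the integrin β chain that pairs with ITGA6 on laminin, fell in A375 from 83.7, 45.3 and 104.7 CPM to 4.72, 3.06 and 4.98 CPM (adjusted p = 4.4e-05). ITGA6 fell by 0.83 on the log2 scale (adjusted p = 0.00032). ITGA7 rose there by 1.23 ± 0.16 (adjusted p = 0.0007), and so did BCAM, a receptor for the LAMA5 chain, by 1.11 ± 0.22 (adjusted p = 0.0051). In CHL1 DAG1, the core of dystroglycan, fell from 462, 466 and 470.0 CPM to 306, 348 and 328 CPM (adjusted p = 3.4e-05). RPSA fell by 0.52 (adjusted p = 0.0015) and the tetraspanin CD151 rose by 0.30 ± 0.06 (adjusted p = 0.0035). DAG1 and RPSA, and POMGNT2 named below, lie on chromosome 3 like LAMB2, whose neighbours were also lower in resistant CHL1. The part of that chromosome in their lower values was not tested. Of the 13 genes that add the laminin-binding sugar to dystroglycan, 1 rose and 1 fell (POMGNT1, -0.38 ± 0.05, adjusted p = 0.00064) in A375. In CHL1 12 were tested and 2 fell, POMGNT2 (-0.40 ± 0.06, adjusted p = 0.0008) and POMGNT1 (-0.17 ± 0.04, adjusted p = 0.018), the latter not passing without parental replicate 1 (adjusted p = 0.056).

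Among other matrix crosslinkers 1 of 6 tested genes rose and 3 fell in A375, and 2 of 7 rose and 4 fell in CHL1. LOXL3 rose in both lines, by 0.58 ± 0.12 and 0.41 ± 0.05 (adjusted p = 0.008 and 0.00014), and the transglutaminase TGM2, which can crosslink nidogen, fell by 1.03 in A375 (adjusted p = 0.00043) and by 1.53 in CHL1 (adjusted p = 0.00085). LOXL4 fell by 1.78 in A375 (adjusted p = 0.0099). In CHL1 LOXL1 rose by 0.98 ± 0.09 (adjusted p = 1.4e-05) and LOXL2, which acts on type IV collagen, fell by 0.67 (adjusted p = 0.00061). Of the proteases that cut laminin or nidogen, 5 of 8 rose and 1 fell in A375, and 2 of 7 rose and 2 fell in CHL1. MMP9 rose in A375 from 0.260 ± 0.161 to 16.9 ± 6.21 CPM (SD, n = 3, adjusted p = 2.6e-05). MMP2 fell in A375 from 335 ± 7.98 to 238 ± 30.6 CPM and rose in CHL1 from 15.4 ± 1.76 to 35.1 ± 1.76 CPM (SD, n = 3, adjusted p = 0.0026 and 2.8e-06). ADAMTS1, which cleaves nidogens, rose by 1.04 ± 0.15 in A375 (adjusted p = 0.0011) and by 0.37 ± 0.10 in CHL1 (adjusted p = 0.019), where it did not pass on leaving out replicate 2 or 3 of the parental or 1 of the resistant cells (largest adjusted p = 0.094). CTSL and MMP14 fell in CHL1 by 0.31 and 0.23 (adjusted p = 0.0018 and 0.0092).

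Within the groups some libraries were low for many of the 10 genes. Parental A375 replicate 2 was the lowest of its group for 9 of the 10, with LAMA5 at 65.2 beside 125 and 149 CPM and NID1 at 123 beside 209 and 151 CPM. Resistant A375 replicate 2 was the lowest of its group for 6. In CHL1 parental replicate 2 was the lowest of its group for 7 and resistant replicate 1 for 6. Leaving out any 1 library kept the direction of each resistant-to-parental difference except those of LAMB1 in A375 and LAMA5 in CHL1, which were 0.00, and PXDN in A375 stayed between -6.29 and -5.83.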

How the data were processed

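RNA of 12 cell-line samples was sequenced, and the authors deposited 2 tables, 1 per line, of raw read counts per Ensembl gene without normalisation. Per the submitters' processing notes, HTSeq 0.5, TopHat2, cutadapt 1.7, CASAVA 1.8.2 and limma were used. Which build and annotation the reads were counted on is not given in the sources used here. Genes at 0 in all libraries of a line are not listed. The reads carry no molecular identifiers and may repeat a molecule, so the 3-count floor covers counting error only. Symbols, gene order, exon lengths and overlaps come from a table of gene names and GENCODE 29, and promoter windows from RefSeq, where all 10 genes matched. ENSG00000155984 had no symbol, and 1 of the cell type markers (PECAM1) was not matched.

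Each line was fitted alone with edgeR 4.0.16 in R 4.3.3 (TMM, filterByExpr with a minimum count of 10, quasi-likelihood F-test, two-sided, Benjamini-Hochberg adjusted p over all genes tested, threshold 0.05), which left 18086 genes in A375 and 17219 in CHL1. Line contrasts and the difference of the 2 resistance effects came from 1 fit of all 12 libraries to the 4 groups over the genes in both tables (19241 tested). Normalised CPM uses the TMM scale over the 12 libraries, and likeness is Pearson's r of log2(CPM + 0.1) for genes averaging at least 1 CPM. The fits were tested on simulated counts with 200 changed genes. Of genes changed 2-fold, 72.0% were called in A375 and 96.0% in CHL1, and of those changed 1.5-fold, 50.0% and 80.0%. Small changes were thus missed more often in A375. Of unchanged genes 0.067% and 0.065% were called. The members and lists were chosen with earlier results of these data known. Named pathway genes were, in each list and line, up to 2 per direction with the smallest adjusted p. Those named beyond this rule, chosen after their values were seen, are LAMA3 in both lines, COL4A1 and CTSL in A375, and TGM2 and ITGA7 in CHL1. Some genes on the lists are counted but not reported by name here. Alternatives were other normalisations (DESeq2 1.42.0 size factors, upper quartile), the DESeq2 test, no filter or 1 CPM in 3 libraries, a replicate block and leaving out each library.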

Additional observations from a re-analysis of the deposited data

Results flagged for a closer look

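The resistance effect differed between the lines by the test of the difference itself (edgeR, 4-group fit, adjusted p below 0.05) for 16 of the basement membrane genes named above that were tested in both lines. Each value is the log2 effect in A375 minus that in CHL1. The difference was positive for LAMC3 (2.99), ITGA7 (1.57), BCAM (1.30), FBLN1 (1.30), COL4A5 (1.13), FREM1 (1.12), ADAMTS1 (0.68), LOXL2 (0.65) and CTSL (0.62). It was negative for ITGB4 (-4.50), SMOC1 (-4.08), MMP2 (-1.68), LOXL4 (-1.49), ITGA6 (-0.91), COL4A2 (-0.60) and POMGNT1 (-0.21). MMP2, ITGA7, CTSL and LAMC3 passed in both lines in opposite directions. The named genes were picked by a small adjusted p in the fit of a line, or after their values were seen, in these same libraries. That choice favours a difference between the lines, so the count of 16 supports nothing. Of all genes tested for the difference, 23.6% passed, 11.7% as higher and 11.9% as lower. Of the 67 list genes tested for it, 15 passed as higher and 12 as lower.

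LAMA2 (-2.60) and NID2 (-1.50) were lower in every resistant than in every parental A375 library and higher in every resistant than in every parental CHL1 library. For NID2 the log2 fold change in CHL1 was small, 0.23 ± 0.10. In A375 that of NID2 was -1.27 ± 0.32 and reached -0.79 when a library was left out. The exons NID2 shares with RTRAF also make its values uncertain. LAMA2 and NID2 are both among the 5 of 10 genes counted above as differing in this sense at an adjusted p below 0.05 (edgeR). That count supports nothing because the genes were chosen with these values known.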

How the results depend on the processing

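No value changed sign while called, and every count of genes stayed within 1.5 times its main value. Leaving out 1 library at a time gave 3783 to 4738 genes called in A375 (5111 with all) and 2634 to 3297 in CHL1 (3623), and 26 to 30 and 21 to 26 pathway genes (30 and 25). It gave 3757 to 4523 for the difference of the effects (4535), 14120 to 14738 between the parental lines (14550) and 14304 to 14992 between the resistant lines (14740). Where a group then held fewer libraries, the shared spread was assumed to hold for it. The DESeq2 test called 4591 genes in A375 and 3079 in CHL1. Of 690 alternative values of the 10 genes' fold changes, 680 moved by less than the spread between libraries. The labels do not say that equal replicate numbers pair the samples, and the main fits did not pair them. Same-numbered parental and resistant libraries deviated with correlations of 0.382, 0.382 and -0.015 in A375 and 0.257, 0.012 and 0.096 in CHL1. In A375 parental replicate 1 correlated at -0.445 with resistant replicate 2, and parental 2 at -0.326 with resistant 1. Not every library correlated best with its own number. A replicate effect shared by the states, in A375 above all, is thus possible, and its source was not tested. With the replicate block 6307 genes were called in A375 and 4339 in CHL1, 34 and 28 of them pathway genes, 4659 for the difference of the effects, 14601 between the parental and 14760 between the resistant lines. The fewest counts a library were 11 to 20 for LAMB3 in resistant CHL1 and 14 to 29 for PXDN in resistant A375.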
